A study of Homo sapiens with 18 samples.

Results

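The 4 HOX gene clusters were examined for 3 histone marks in human lung adenocarcinoma cells. They were defined by 4 windows in hg19: HOXA at chr7:27125000-27260000, HOXB at chr17:46600000-46815000, HOXC at chr12:54325000-54455000 and HOXD at chr2:176945000-177060000. All peak summits inside these windows were taken, which gave 762 of the 947675 summits in the 13 lists, or 0.0804%. By window, 254 summits lay in HOXA, 236 in HOXB, 183 in HOXC and 89 in HOXD. The windows were chosen by position and not by any measured value, and 38 genes of the clusters are named here: 10 of HOXA, 10 of HOXB, 9 of HOXC and 9 of HOXD.

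HOX genes encode homeodomain transcription factors that give cells their position along the body axis. They lie in 4 clusters, and the order of the genes along a cluster follows the order in which they act, from anterior (low gene numbers) to posterior (high gene numbers). Adult tissues and tumours derived from them keep a HOX pattern that reflects their origin, and HOX genes of anterior and middle number are known to act in the developing lung. H3K4me3 marks promoters, H3K27ac marks active promoters and enhancers, and H3K4me1 is found at enhancers and on either side of promoters. Silent HOX promoters are often bound by Polycomb and can carry H3K4me3 without H3K27ac.

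The marks were mapped by ChIP-seq in 4 conditions. H2087-LCC (LCC below) was the untreated line, H2087-LCC-TGFb (TGFb) was the same line given TGF-β1 at 100 nM for 4 days per the labels, H2087-LCC-SO1 (SO1) was a second line of the H2087-LCC name, and H2030 was a separate lung adenocarcinoma line. H3K27ac of LCC was profiled in 2 biological replicates, every other combination of mark and condition had 1 library, and the 5 input libraries were not analysed here. H2030 was grown in a simpler medium than the H2087-LCC lines, without hydrocortisone, insulin, transferrin or epidermal growth factor, so line and medium cannot be told apart. The labels do not explain LCC or SO1, and the marker genes of lung adenocarcinoma could not be checked because no hg19 annotation was used.

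The deposited lists held between 25691 summits (H3K4me3 of H2030) and 143843 summits (H3K4me1 of TGFb), and read depth is unknown. Each summit has a score, the authors' −log10 of a p-value (or of a q-value adjusted for multiple testing), which rises with depth. Scores are given side by side as the strength of a peak in its own library, for some sites together with percentiles within that list. No size of change between lists is drawn from them, and a higher score can go with a lower percentile. The lists give no peak widths, so a summit does not show how wide its peak was. TGFb, SO1 and H2030 had 1 library per mark, no test of a difference between conditions or between the windows and the genome was run, and the Wilson 95% intervals below cover counting error only.

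Of the genes named here, HOXA runs along the chromosome from HOXA2 on the low-coordinate side to HOXA13, and HOXB runs from HOXB1 to HOXB9 and then HOXB13. HOXC runs in the opposite sense, from HOXC13 to HOXC8 and then the group of HOXC4, HOXC5 and HOXC6, and HOXD runs from HOXD13 to HOXD1. This order comes from RefSeq on GRCh38.p14, a different build from that of the summits, so no summit is assigned to a single gene. HOXC4 and HOXC5 have the same promoter in the RefSeq table, and no order within their group is given here. To show what a HOX promoter looks like in sequence, the promoters of 3 genes that stand at an end of their cluster follow, each as 300 bases around the start, 5′ to 3′ on the strand of the gene, with CG dinucleotides in capitals. They are HOXB1 at chr17:48530962-48531261 (minus strand), which patterns the hindbrain, HOXD13 at chr2:176092471-176092770 (plus strand), which shapes the digits, and HOXD1 at chr2:176188418-176188717 (plus strand), from RefSeq on GRCh38.p14.

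HOXB1: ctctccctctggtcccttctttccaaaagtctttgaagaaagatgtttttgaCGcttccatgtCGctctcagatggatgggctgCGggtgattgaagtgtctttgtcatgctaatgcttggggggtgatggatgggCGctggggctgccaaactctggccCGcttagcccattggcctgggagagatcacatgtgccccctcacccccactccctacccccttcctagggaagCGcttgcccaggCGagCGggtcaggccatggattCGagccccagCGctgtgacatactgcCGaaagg

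HOXD13: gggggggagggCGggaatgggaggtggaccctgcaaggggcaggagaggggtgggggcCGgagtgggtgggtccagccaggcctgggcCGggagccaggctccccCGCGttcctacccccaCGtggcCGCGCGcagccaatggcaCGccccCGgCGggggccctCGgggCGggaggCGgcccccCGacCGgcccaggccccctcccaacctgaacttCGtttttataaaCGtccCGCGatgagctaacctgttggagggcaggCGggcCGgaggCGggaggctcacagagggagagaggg

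HOXD1: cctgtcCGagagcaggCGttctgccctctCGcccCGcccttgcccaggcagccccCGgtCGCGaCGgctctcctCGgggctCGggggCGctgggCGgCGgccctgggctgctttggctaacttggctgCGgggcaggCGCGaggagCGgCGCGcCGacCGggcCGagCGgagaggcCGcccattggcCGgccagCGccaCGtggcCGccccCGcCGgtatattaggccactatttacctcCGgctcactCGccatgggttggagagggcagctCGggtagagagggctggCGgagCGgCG

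HOXB1 has 11 CG dinucleotides in these 300 bases, HOXD13 has 24 and HOXD1 has 36. The RefSeq promoter table held 20 of the 38 genes, with 26 distinct promoters, several of them alternative starts of HOXA3, whose median was 22.5 CG dinucleotides against 14.0 over all 34796 promoters. HOXA13, the last HOXA gene and a limb and hindgut factor, had the highest number of these 26 with 44. Of HOXB they covered only HOXB1, and of HOXC only HOXC4 and HOXC5. The core homeodomain motif TAAT, searched on both strands, was present in 20 of the 26 promoters (76.9%) and in 50.3% of all promoters. A match describes the letters and is not a binding site.

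H3K4me3 was the mark in which the HOX windows stood out most from the genome by density. LCC had 50 H3K4me3 summits there, TGFb 49, SO1 48 and H2030 42, between 8.13 and 9.52 times the number per 100 kb over chromosomes 1 to 22 and X. For H3K27ac the LCC libraries had 38 and 46 summits there, TGFb 48, SO1 44 and H2030 26, between 2.46 and 3.88 times the genome. H3K4me1 gave 99, 98, 102 and 72 summits in LCC, TGFb, SO1 and H2030, between 2.69 and 3.95 times the genome. H2030 had the fewest HOX summits for each of the 3 marks. Its H3K27ac list was longer than that of LCC replicate 1 (52534 against 50663 summits), while its HOX count was lower (26 against 38).

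The counts differed between clusters in H2030. In HOXC, the H3K4me3 summits numbered 14 in LCC, 14 in TGFb, 14 in SO1 and 7 in H2030. In HOXD the order was the other way round, with 7, 6, 7 and 11 H3K4me3 summits. HOXA had 16, 15, 15 and 14, and HOXB had 13, 14, 12 and 10. H3K4me1 gave 25, 24, 25 and 14 summits in HOXC. In HOXD it gave 8, 8, 14 and 16, where SO1 stood with H2030. With scores of at least 10 the HOXD counts were 2, 3, 8 and 7. That cut lay below the H3K4me1 list median of SO1 (15.8) and above that of H2030 (8.44). At or above each list's own median the HOXD counts were 2, 2, 5 and 11, with H2030 above SO1. HOXD had the fewest H3K27ac summits in each list, with 1 and 2 summits in the LCC libraries, 2 in TGFb, 3 in SO1 and 4 in H2030. Per 100 kb, HOXD was also lowest in LCC, TGFb and SO1, but not in H2030, where it had 3.48 and the longer HOXB window 3.26. HOXA had 15 and 19 H3K27ac summits in LCC, 16 in TGFb, 15 in SO1 and 8 in H2030. HOXB had 12 and 17 in LCC, 19 in TGFb, 16 in SO1 and 7 in H2030.

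**Figure D1:**
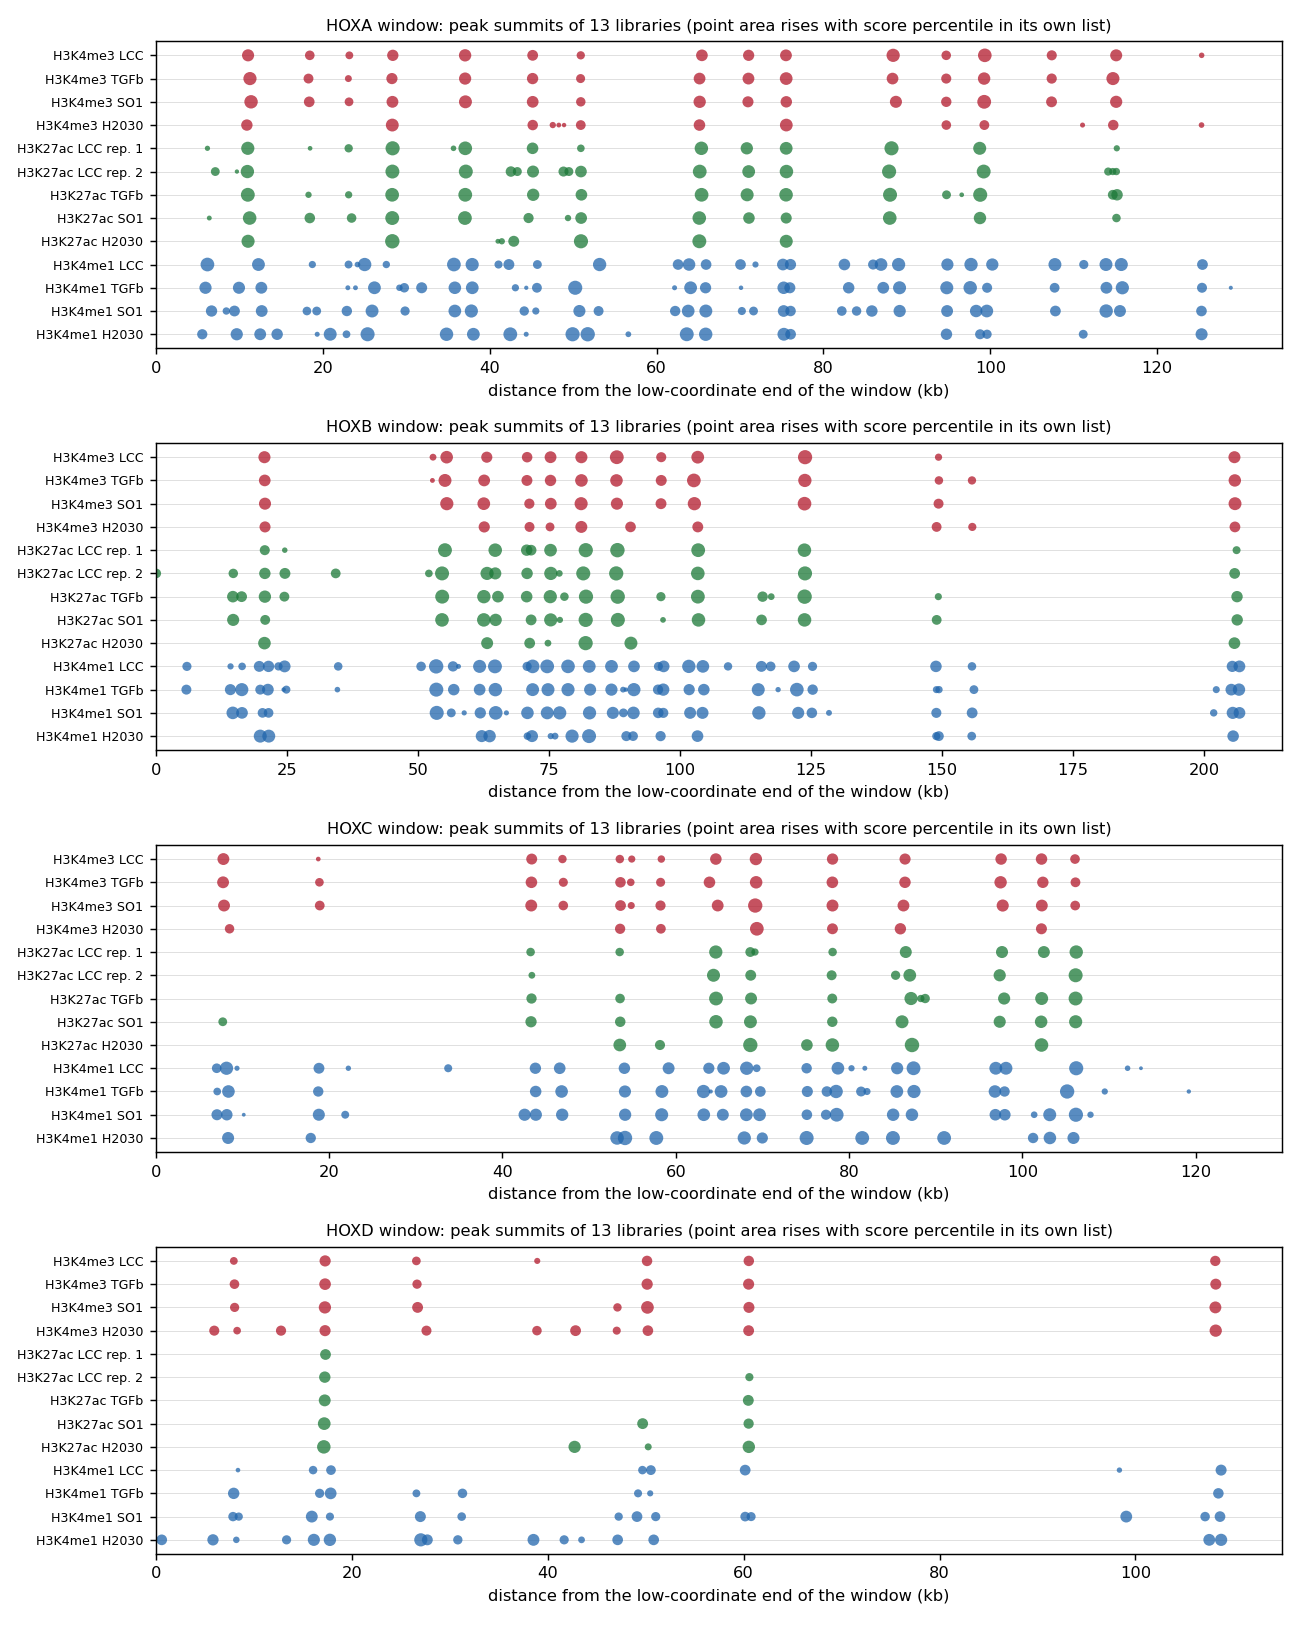
Peak summits of the 13 libraries in each HOX window, plotted by distance in kb from the low-coordinate end, with 1 line of points per library and point area rising with the percentile of the score in its own list. H3K4me3 and H3K27ac stand in shared columns in LCC, TGFb and SO1, several of which are empty in H2030, while HOXD has few H3K27ac points and 11 H3K4me3 points in H2030.

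Summits of the 4 H3K4me3 lists lying within 1 kb of each other were joined into 58 sites, 18 in HOXA, 15 in HOXB, 14 in HOXC and 11 in HOXD. Of these, 30 had H3K4me3 in all 4 conditions (9 in HOXA, 8 in HOXB, 7 in HOXC and 6 in HOXD), against 41.3% of all sites in the genome. A further 17 had H3K4me3 in LCC, TGFb and SO1 and not in H2030, with 6 in HOXA, 4 in HOXB, 7 in HOXC and 0 in HOXD, against 14.3% of all sites. H2030 alone marked 6 sites (2 in HOXA, 1 in HOXB and 3 in HOXD), against 16.0%. No HOX site was marked in LCC alone, in TGFb alone or in SO1 alone, against 2.22%, 4.90% and 7.26% of all sites. The remaining 5 sites were weak in LCC, TGFb and SO1, with scores of at most 26.3.

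**Figure D2:**
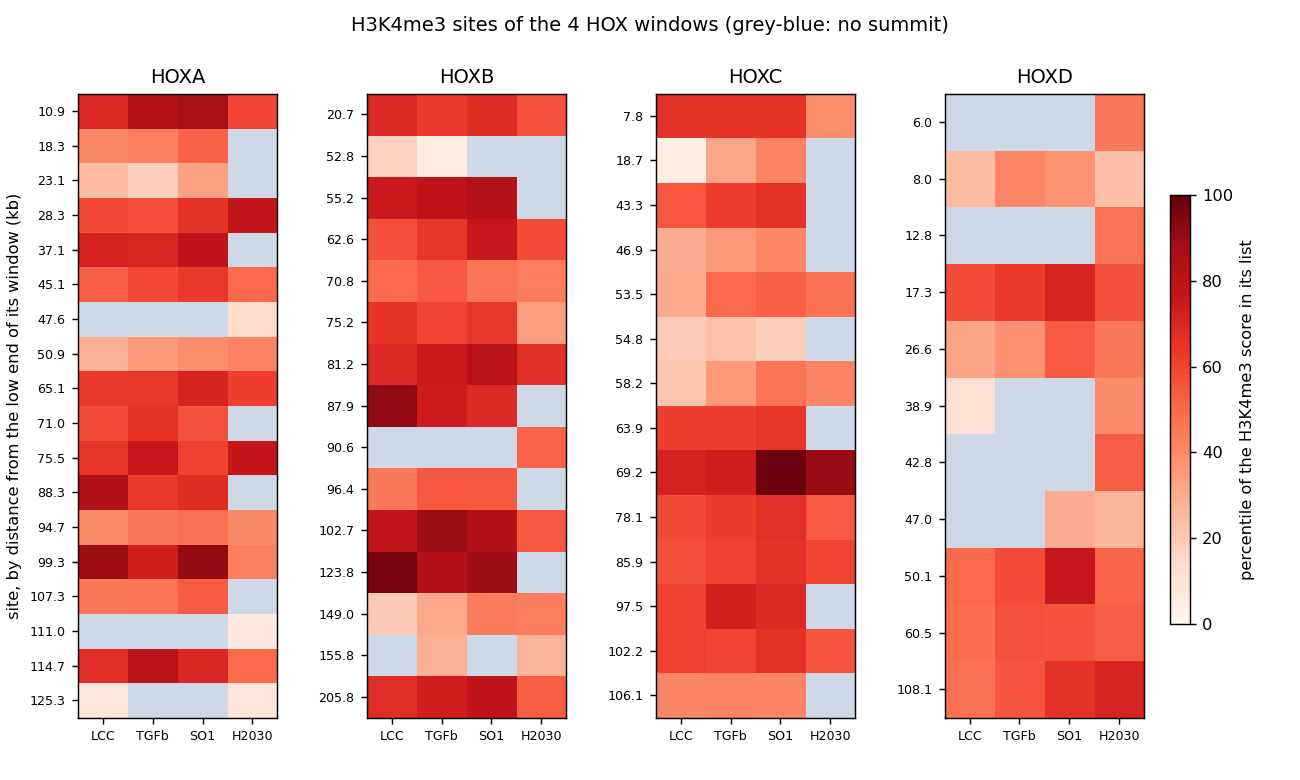
The 58 H3K4me3 sites of the HOX windows (rows, labelled by distance in kb from the low end of the window) in the 4 conditions (columns), coloured by the percentile of the score in its own list, with grey-blue where there was no summit. HOXC has 7 sites empty in H2030 alone, and HOXD has 11 of 11 sites filled in H2030.

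TGF-β1 treatment was compared with untreated LCC cells. The HOX pattern of H3K4me3 was nearly the same in both lists: of the 50 LCC summits, 48 had a TGFb summit within 1 kb (96.0%, interval 86.5 to 98.9%). Over the genome 6.83% of LCC H3K4me3 summits had none, against 2 of 50 here. Both summits without a counterpart were weak, at 8.14 in HOXD and 6.60 in HOXA, and 28 of the 28 summits with a score at or above the LCC list median, called strong below, were kept (genome without one: 1.12%). In the other direction 48 of 49 TGFb summits were found in LCC, where 15.5% of all TGFb summits were not, and 34 of 34 strong ones were (genome without one: 1.1%).

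H3K27ac gave 36 of 38 and 37 of 46 LCC summits kept in TGFb for the 2 replicates (genome without one: 20.4% and 23.9%). Between the LCC replicates themselves, 33 of 38 and 33 of 46 were shared (genome without one: 15.8% and 33.6%), so no more summits lacked a counterpart in TGFb than in the other replicate. The TGFb list was longer, at 68069 summits against 50628 and 62947 in the LCC replicates, which makes a counterpart easier to find. All 24 and 28 acetylated LCC summits at or above the list medians were kept (genome without one: 10.9% and 9.33%). For H3K4me1, 79 of 99 LCC summits were kept (79.8%, interval 70.8 to 86.5%; genome without one: 25.4%). No HOX summit at or above its list median lacked a counterpart within 5 kb in H3K4me3 or H3K27ac, in either direction; genome shares were 0.023% and 0.0485% for H3K4me3, and 2.84%, 2.68% and 5.49% for the H3K27ac of the LCC replicates and TGFb. Among strong LCC H3K4me1 summits, 56 of 60 were kept within 1 kb (genome without one: 9.76%), and 1 in HOXD had none within 5 kb, at position 177005158 with a score of 12.4 (1 of 60, genome share 1.56%). Of the TGFb summits, 35 of 48 H3K27ac summits were found in LCC replicate 1 and 35 of 48 in replicate 2 (genome without one: 45.3% and 33.0%), and 80 of 98 H3K4me1 summits were found (genome without one: 25.6%). The strong TGFb summits were found in 28 of 32 and 30 of 32 cases for H3K27ac (genome without one: 18.0% and 11.1%). Each LCC replicate held all but 1 of the strong acetylated summits of the other, 23 of 24 and 27 of 28 (genome without one: 7.34% and 8.22%).

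SO1 was compared with the same LCC libraries, so the LCC values are shared with the comparison above. Of the LCC H3K4me3 summits 47 of 50 were kept in SO1 (94.0%, interval 83.8 to 97.9%; genome without one: 11.7%), and 28 of 28 of those at or above the list median were kept (genome without one: 1.59%). For H3K27ac 36 of 38 and 39 of 46 LCC summits were kept (genome without one: 26.9% and 34.1%), among them 24 of 24 and 27 of 28 strong ones (genome without one: 13.7% and 14.9%). For H3K4me1 79 of 99 were kept (genome without one: 34.9%). In the other direction 47 of 48 H3K4me3 summits and 81 of 102 H3K4me1 summits of SO1 were found in LCC (genome without one: 19.9% and 28.7%). Strong summits were found in LCC for 36 of 36 in H3K4me3 (genome without one: 1.43%) and 58 of 64 in H3K4me1 (12.8%), and 56 of 60 strong LCC H3K4me1 summits were kept (18.1%). For H3K27ac, 34 of 44 and 35 of 44 SO1 summits were found in the LCC replicates (genome without one: 39.3% and 29.9%), and 27 of 31 strong ones in each (14.9% and 11.7%). TGFb and SO1 also shared H3K4me3 with each other: 47 of 49 TGFb summits and 47 of 48 SO1 summits had a counterpart (genome without one: 15.4% and 15.2%), as did all 34 and 36 strong ones (1.72% and 1.33%).

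The SO1 summits that stood more than 5 kb from any LCC summit of the same mark, and at or above their list median, were 2 of 31 in H3K27ac (genome share 5.05%) and 1 of 64 in H3K4me1 (genome share 4.05%). One H3K27ac summit lay in HOXB at position 46715600 with a score of 32.6, and the other in HOXD at position 176994693 with a score of 36.9. The HOXD summit lay at a site whose H3K4me3 scores were 181 in LCC, 308 in TGFb, 544 in SO1 and 275 in H2030. That site had H3K27ac in SO1 and, at 4.91, in H2030, and in none of the LCC and TGFb lists. The H3K4me1 summit lay in HOXD at position 176972005 with a score of 18.9, beside H3K4me3 that scored 33.8 in LCC, 41.3 in TGFb, 263 in SO1 and 148 in H2030. All 3 had scores close to the median of their list, at percentiles of 51.6, 53.9 and 55.1.

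H2030 was the condition in which strong HOX promoter-type sites of LCC were missing. Of the 50 LCC H3K4me3 summits, 31 had an H2030 summit within 1 kb (62.0%, interval 48.2 to 74.1%), beside 32.9% without one over the genome. Among summits at or above the LCC list median, 19 of 28 were kept (67.9%, interval 49.3 to 82.1%), while over the genome 7.57% of such summits had no H2030 counterpart. The 9 strong summits without one were 3 of 10 in HOXA, 3 of 9 in HOXB and 3 of 8 in HOXC, and the 1 strong HOXD summit was kept. Read over sites, 17 of the 47 HOX sites with H3K4me3 in LCC, TGFb and SO1 lacked it in H2030 (36.2%, interval 24.0 to 50.5%), against 25.6% of such sites over the genome. Whether the windows differ from the genome was not tested.

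Of the 9 strong sites, 5 had no H2030 H3K4me3 within 5 kb (5 of 28, beside a genome share of 4.81%). The site with the highest H3K4me3 score of all HOX sites in LCC was among them, at chr17:46723796-46723903 in the HOXB window. Its H3K4me3 scores were 566 in LCC (percentile 96.4), 550 in TGFb and 601 in SO1, and the nearest H2030 summit lay 20476 bp away. Its H3K27ac scores were 61.1 and 174 in the LCC replicates, 441 in TGFb and 192 in SO1, and H2030 again had no summit there, the nearest H3K27ac being 33234 bp away. No list had an H3K4me1 summit within 1 kb of this site. In TGFb its acetylation was the strongest of the HOX windows and ranked 522 of 68069.

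A second HOXB site, at chr17:46655187-46655534, had H3K4me3 scores of 459 in LCC, 531 in TGFb and 575 in SO1, with the nearest H2030 summit 7169 bp away. Its H3K27ac scores were 84.6 and 154 in LCC (percentiles 92.0 and 93.4), 264 in TGFb (92.5) and 203 in SO1 (87.9). H2030 had none within 1 kb of the site. Close to it, on the low side, stood the strongest H3K4me1 summit of the HOXB window, at position 46653504, with a score of 88.0 in LCC (percentile 98.7). Its counterparts scored 51.8 in TGFb and 80.4 in SO1, and H2030 had no H3K4me1 summit within 8698 bp. All 3 marks were thus listed at or beside this site in LCC, TGFb and SO1, and none in H2030.

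In HOXA the site at chr7:27162061-27162103 had H3K4me3 scores of 442 in LCC, 471 in TGFb and 560 in SO1, and the nearest H2030 H3K4me3 lay 8103 bp away. Its H3K27ac scores were 69.7 and 147 in LCC, 239 in TGFb and 228 in SO1, with no H2030 summit within 1 kb. H3K4me1 was the exception there, scoring 32.4 in LCC, 24.7 in TGFb, 46.4 in SO1 and 19.9 in H2030. The site at chr7:27213278-27213685 had H3K4me3 scores of 500 in LCC, 403 in TGFb and 493 in SO1. H3K27ac at this site scored 109 and 177 in LCC (percentiles 95.3 and 95.3), 275 in TGFb (93.2) and 206 in SO1 (88.1). H2030 had no H3K4me3 within 6371 bp and no H3K27ac within 12810 bp of it, and no H3K4me1 summit within 1 kb, against scores of 33.0, 28.2 and 31.4 in LCC, TGFb and SO1. The fifth site, in HOXC at chr12:54368321-54368375, had H3K4me3 scores of 267, 377 and 472 in LCC, TGFb and SO1, and none in H2030 within 10200 bp. Its H3K27ac was weak in LCC, with scores of 6.91 and 4.73 (percentiles 30.9 and 17.0). It scored 18.1 in TGFb (47.3) and 46.5 in SO1 (58.3), where it lay above the list median.

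The other 4 strong sites had an H2030 H3K4me3 summit between 2622 and 4729 bp away, and were singled out after their values were seen. In HOXB, the site at chr17:46687911-46687995 had H3K4me3 scores of 535, 504 and 498 in LCC, TGFb and SO1, and its H3K27ac scored 205 and 206 in LCC, 404 in TGFb and 287 in SO1. This was the strongest acetylated HOX summit of LCC replicate 1, with rank 325 of 50628. H2030 had its own H3K4me3 summit 2622 bp further, at position 46690593, with a score of 279 and H3K27ac at 126, where LCC, TGFb and SO1 had neither mark. Whether these are separate peaks or the shifted summit of a wide peak was not tested, as the lists give no widths. The HOXA site at chr7:27195954-27196037 scored 309, 425 and 314 for H3K4me3. The HOXC sites at chr12:54388885-54389835 and chr12:54422478-54422721 scored 355, 374 and 460 and 344, 493 and 499. None of the 9 strong sites had H2030 H3K27ac within 1 kb (81.2% of such sites over the genome had none), and 1 of 9 had H2030 H3K4me1 (24.6% over the genome).

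The sites missing in H2030 alternated along the chromosome with sites that all 4 conditions shared, and did not form a single block. In HOXA, the site at chr7:27153294-27153398 stood between missing sites and scored 325, 291, 465 and 505 for H3K4me3 in LCC, TGFb, SO1 and H2030. Its H3K27ac scored 114 and 146 in LCC, 221 in TGFb, 259 in SO1 and 411 in H2030, where it ranked 315 of 52414. In HOXB, the site at chr17:46681164-46681225 scored 421, 508, 570 and 461 for H3K4me3, and 123, 167, 336, 341 and 332 for H3K27ac in LCC replicate 1, LCC replicate 2, TGFb, SO1 and H2030. Both sites had strong H3K4me3 and H3K27ac in every list. Toward the high-coordinate end of HOXA, the side of HOXA13, the H3K27ac of H2030 ended at position 27200542, and the last 59.5 kb of the window held none. LCC, TGFb and SO1 had H3K27ac there at chr7:27224252-27224335, with scores of 42.9, 140, 297 and 93.9 and none in H2030, while H3K4me3 at that site was listed in all 4 at 522, 495, 613 and 122.

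In H3K27ac as a whole, 18 of 38 and 18 of 46 LCC summits in the windows were kept in H2030, beside 52.6% and 58.4% without a counterpart over the genome. Among those at or above the list medians, 11 of 24 and 14 of 28 were kept (genome without one: 37.4% and 41.8%). With none allowed within 5 kb, 5 of 24 and 5 of 28 strong LCC summits lacked a counterpart, beside genome shares of 27.5% and 32.1%. In both replicates they lay at or near the same places, 3 in HOXB near positions 46655181, 46703505 and 46723778 and 2 in HOXA near positions 27213156 and 27223725. H3K4me1 kept 44 of 99 summits (44.4%, interval 35.0 to 54.3%; genome without one: 54.5%), and 31 of 60 strong ones (43.6%). Over all summits of the lists, the HOX shares of H3K27ac and H3K4me1 were thus near those of the genome. In the other direction, 16 of 26 and 17 of 26 H2030 H3K27ac summits were found in the LCC replicates (genome without one: 57.3% and 51.9%), with 15 of 21 and 16 of 21 strong ones (34.4% and 29.7%). Of the H2030 H3K4me1 summits 45 of 72 were found in LCC (genome without one: 50.9%), with 31 of 48 strong ones (34.6%).

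**Figure D3:**
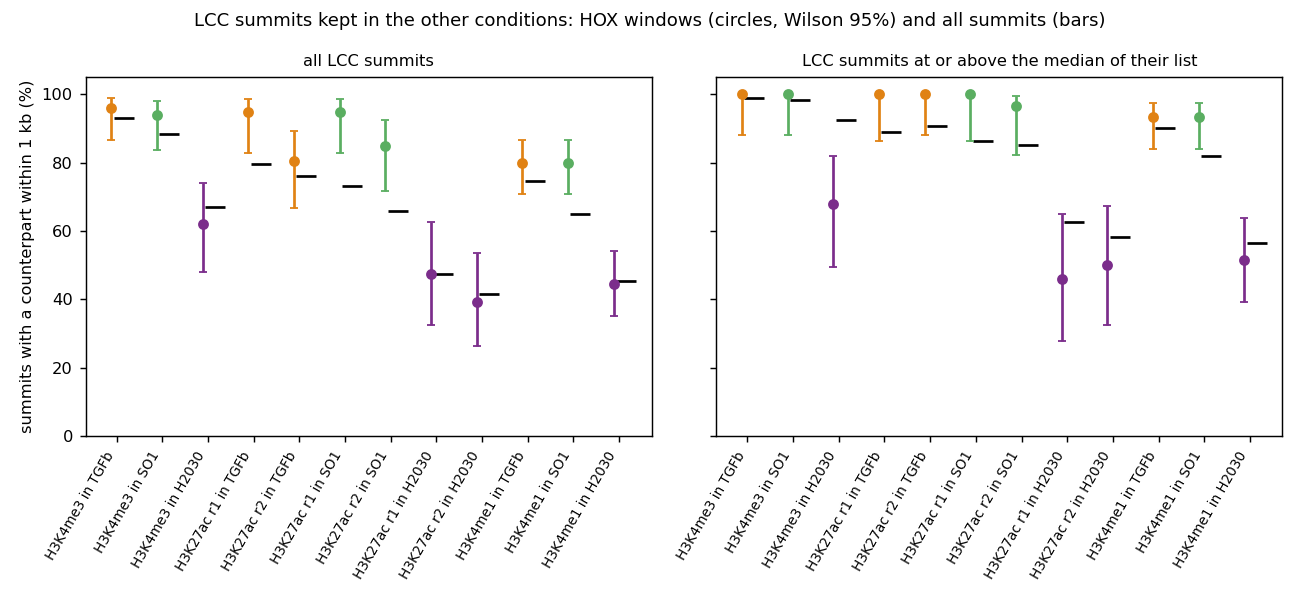
Percent of LCC summits with a counterpart within 1 kb in TGFb (orange), SO1 (green) and H2030 (purple), for HOX windows (circles, Wilson 95% intervals) and for all summits of the list (black bars), with all LCC summits on the left and those at or above their list median on the right; r1 and r2 are the LCC replicates. For strong H3K4me3 in H2030 the HOX value is 67.9% and the genome value 92.4%, and the remaining circles lie near or above their bars, except strong H3K27ac in H2030.

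H2030 differed from the H2087-LCC conditions most in the other sense in HOXD, which carries posterior genes at its low-coordinate end. All 11 HOXD sites had H3K4me3 in H2030, against 7, 6 and 7 in LCC, TGFb and SO1. The 3 sites that H2030 alone marked were at chr2:176950968 with a score of 158 (percentile 45.5), chr2:176957783 with 174 (46.4) and chr2:176987847 with 318 (53.3). The last of these also had an H3K27ac summit in H2030, at position 176987748, with a score of 61.1 and no LCC H3K27ac within 17840 bp. It was the 1 of 21 strong H2030 acetylated summits in the windows that lay more than 5 kb from LCC (genome share: 20.0%). Of the 42 H2030 H3K4me3 summits 31 were found in LCC (73.8%, interval 58.9 to 84.7%; genome without one: 32.0%), with 10 of 14 in HOXA, 8 of 10 in HOXB, 7 of 7 in HOXC and 6 of 11 in HOXD. Of the 19 strong ones 17 were found in LCC (genome without one: 4.93%), and the other 2 were the H2030 sites at positions 46690593 and 176987847. Of the 19, 0 lay more than 5 kb from LCC H3K4me3 (genome share 2.83%). The 3 HOXD sites of H2030 alone had LCC H3K4me3 at neighbouring sites, starting at positions 176952964, 176962261 and 176983905. The LCC scores there were 18.3, 304 and 8.14, against a list median of 189. The weak summit of 8.14 was the only LCC H3K4me3 within 5 kb of position 176987847. For that site the count of 0 of 19 thus rested on this weak summit, and the next LCC site started at position 176995142. Whether the 3 HOXD sites of H2030 alone are separate peaks or the shifted summits of wide peaks was not tested.

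The 4 strong H2030 H3K4me1 summits more than 5 kb from any LCC H3K4me1 were all in HOXD, at positions 176945605, 176972051, 176972715 and 176983549, with scores of 8.91, 24.4, 9.48 and 13.6 (4 of 48, genome share 16.7%). The 9 strong LCC H3K4me1 summits with none in H2030 within 5 kb were 3 in HOXA, 3 in HOXB, 2 in HOXC and 1 in HOXD (9 of 60, genome share 27.1%). The 3 HOXA summits lay at positions 27207510, 27211899 and 27214007, with scores of 17.1, 26.3 and 33.0, and flank the missing H3K4me3 site at chr7:27213278-27213685. Besides position 46653504, the HOXB summits lay at 46715569 and 46721801 with scores of 13.4 and 17.4. Those of HOXC were at 54368800 and 54371605, with 15.3 and 17.2, and that of HOXD was again 177005158.

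In LCC, TGFb and SO1, HOXD had the lowest number and share of H3K4me3 summits with H3K27ac among the 4 windows, on 6 or 7 summits. Of the LCC H3K4me3 summits in the windows, 32 of 50 had H3K27ac within 1 kb in replicate 1 and 31 of 50 in replicate 2, against 68.6% and 72.7% of all H3K4me3 summits. The number was 37 of 49 in TGFb (75.5%, interval 61.9 to 85.4%; genome 73.5%), 38 of 48 in SO1 (79.2%, interval 65.7 to 88.3%; genome 73.1%) and 21 of 42 in H2030 (50.0%, interval 35.5 to 64.5%; genome 69.1%). Within H2030, HOXA had 5 of 14 and HOXD 4 of 11, while HOXB had 7 of 10 and HOXC 5 of 7. HOXA in the H2087-LCC conditions had 13 of 16 and 11 of 16 in the LCC replicates, 14 of 15 in TGFb and 13 of 15 in SO1. HOXB ranged from 9 of 13 in LCC replicate 1 to 12 of 12 in SO1.

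HOXD had the fewest acetylated H3K4me3 summits in each list of the H2087-LCC conditions, with 1 of 7 and 2 of 7 in LCC, 2 of 6 in TGFb and 3 of 7 in SO1. The intervals on these HOXD shares were wide, at 2.57 to 51.3% and 8.22 to 64.1% for LCC, 9.68 to 70.0% for TGFb and 15.8 to 75.0% for SO1. Among strong H3K4me3 summits of HOXD, 1 of 1 had H3K27ac in each LCC replicate, 2 of 4 in TGFb, 3 of 5 in SO1 and 4 of 5 in H2030. HOXD H3K4me3 summits at or above the list median were 1 of 7 in LCC, 4 of 6 in TGFb, 5 of 7 in SO1 and 5 of 11 in H2030. Of the 11 HOXD sites, 7 had no H3K27ac in any list, against 3 of 18 in HOXA, 1 of 15 in HOXB and 3 of 14 in HOXC. No share over all H3K4me3 sites of the genome was taken for this count or the next. Whether they are particular to HOXD was not tested. The 3 sites with H3K4me3 in all 4 conditions and no H3K27ac in any were all in HOXD. One of them, at chr2:177053145-177053195 on the side of HOXD1, scored 156 in LCC, 246 in TGFb, 472 in SO1 and 477 in H2030 for H3K4me3, and was the strongest HOXD H3K4me3 site of H2030. The others were weaker. The site starting at 176952964 scored 18.3, 56.3, 48.0 and 17.6, and that at 176971597 scored 33.8, 41.3, 263 and 148. Of the 7 HOXD sites without H3K27ac, those at 176950968, 176952964, 176957783, 176983905 and 176992049 lay below the list median in each condition with H3K4me3 there. The HOXD site with acetylation in all 5 lists was at chr2:176962261-176962284. Its H3K27ac scored 13.9 and 21.2 in LCC, 52.9 in TGFb, 113 in SO1 and 186 in H2030, and its H3K4me3 scored 304, 390, 513 and 377.

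The acetylated share moved with the strength of H3K4me3, over the genome and in the windows. Among HOX H3K4me3 summits at or above their list median, 26 of 28 had H3K27ac in each LCC replicate, 31 of 34 in TGFb, 33 of 36 in SO1 and 16 of 19 in H2030. The genome shares were 88.0% and 91.7% for LCC, 88.8% for TGFb, 87.7% for SO1 and 90.0% for H2030. In H2030, 19 of the 42 HOX summits reached the list median, against 28 of 50 in LCC, 34 of 49 in TGFb and 36 of 48 in SO1.

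**Figure D4:**
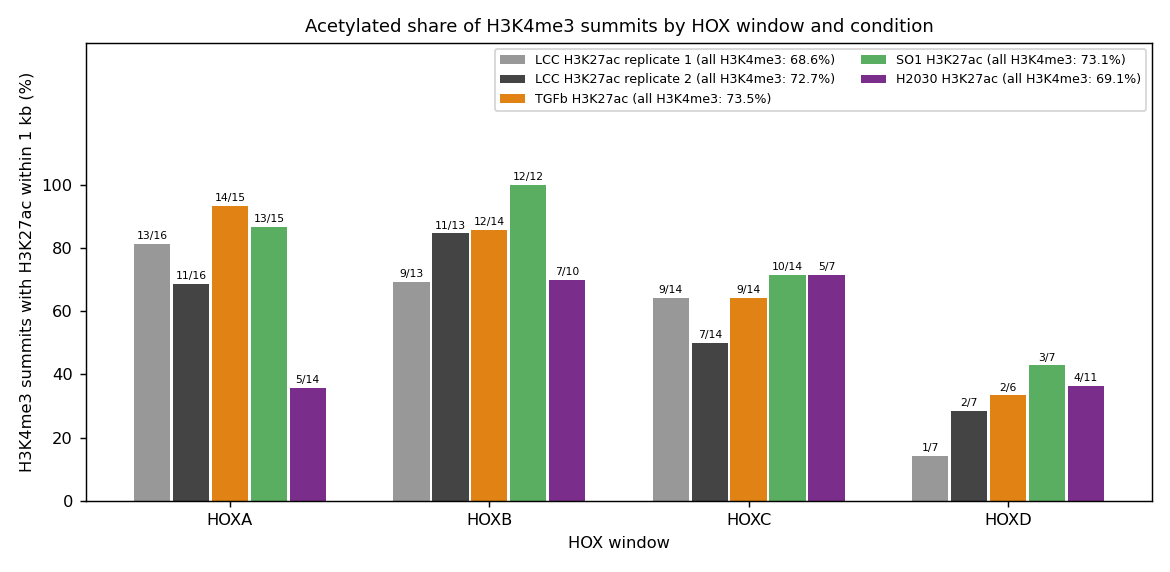
Percent of H3K4me3 summits with an H3K27ac summit of the same condition within 1 kb, by HOX window and acetylation list, with the counts above the bars and the share over all H3K4me3 summits in the legend. HOXD has the lowest bar of the 4 windows in the LCC, TGFb and SO1 lists, and the H2030 bar of HOXA stands at 5 of 14.

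The H3K27ac summit with the highest score of the windows in H2030 was in HOXC. Each HOXC site with H3K27ac in H2030 had a higher percentile there than in any other list with H3K27ac at that site. Of these sites, 3 are given here. At chr12:54410915-54411453, H3K27ac scored 23.7 and 53.1 in LCC (percentiles 66.9 and 76.4), 147 in TGFb (82.1), 131 in SO1 (79.1), against 466 in H2030 (99.9). The H2030 summit, at position 54412253, ranked 56 of 52414. At chr12:54394166-54394352 H3K27ac scored 9.93 and 16.0 in LCC (percentiles 43.2 and 53.9), 53.6 in TGFb (66.1), 127 in SO1 (78.4), against 358 in H2030 (98.0). The same place had the highest H3K4me3 score of the HOXC window in all 4 conditions, with 441, 501, 671 and 543, and in SO1 it ranked 518 of 28627. At chr12:54403066-54403086 H3K27ac scored 6.79 and 10.6 in LCC, 14.9 in TGFb, 28.7 in SO1 and 188 in H2030. H3K4me3 was listed at all 3 places in every condition.

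A HOXC site on the side of HOXC4, HOXC5 and HOXC6 showed the reverse. At chr12:54431064-54431118, H3K4me3 was weak, with scores of 79.1 in LCC, 67.4 in TGFb and 77.5 in SO1 and none in H2030. H3K27ac there scored 55.2 and 157 in LCC, 259 in TGFb and 151 in SO1, the highest of the HOXC window in both LCC libraries and in TGFb, and H2030 had none. The strongest H3K4me1 of HOXC in LCC and SO1 lay at the same place, with 62.3 and 92.0, and TGFb scored 71.9, while H2030 scored 14.4. Strong H3K27ac and H3K4me1 with weak H3K4me3 is the usual make-up of an enhancer, as background.

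H3K27ac away from H3K4me3 was rare in the windows. The H3K27ac summits with no H3K4me3 of the same condition within 1 kb numbered 4 of 38 and 13 of 46 in LCC, 10 of 48 in TGFb, 6 of 44 in SO1 and 5 of 26 in H2030, between 10.5 and 28.3%. Over the genome the share lay between 60.9 and 67.7% (60.9% and 67.7% in the LCC libraries, 67.7% in TGFb, 60.9% in SO1 and 64.7% in H2030). H3K4me3 was also denser in the windows, by 8.13 to 9.52 times, and its part in this difference was not tested. The median distance from an H3K4me3 summit to the nearest H3K4me1, on whichever side, was 601 bp in LCC, 598 bp in TGFb, 467.5 bp in SO1 and 510.5 bp in H2030. Over the genome it was 660, 664, 639 and 739 bp. H3K4me1 was also denser in the windows, by 2.69 to 3.95 times, and its part in the shorter distances was not tested. For H3K27ac the distance was taken only over pairs within 1 kb, which bounds it, and its medians lay between 60 and 133.5 bp, against 69 to 86 bp over the genome.

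Parts of the windows had no summit in any of the 13 lists. In HOXB, 45.8 kb between positions 46756125 and 46801880 were empty, and beyond them an isolated site at chr17:46805839-46805949 had H3K4me3 in every condition, with scores of 411 in LCC, 495 in TGFb, 558 in SO1 and 308 in H2030. This is the end of HOXB on which HOXB13, the prostate and tail gene of the cluster, is the last in order. H3K27ac at this site scored 6.08 and 15.0 in LCC, 36.0 in TGFb, 50.4 in SO1 and 36.7 in H2030. In HOXD, 37.6 kb between positions 177005765 and 177043359 were empty. The longest stretch of HOXB without H3K27ac was 115.2 kb in H2030, between positions 46690669 and 46805837, against 82.0 kb in LCC, 57.0 kb in TGFb and 57.3 kb in SO1.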

How the data were processed

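ChIP-seq peak summits of H3K27ac, H3K4me1 and H3K4me3 were analysed from 13 deposited lists of 18 samples. Bowtie2, SAMtools, deepTools and hg19 were used, per the submitters' processing notes, and the peak caller is not given in the sources used here. The deposited score was read as a −log10, either of a p-value or else of a q-value, since the lowest values lie just above 1.30103, the −log10 of 0.05, and which of them it is was not settled. Lists were called per library, and groups came from sample titles.

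Only chromosomes 1 to 22 and X entered. A summit was kept where the other list had one within 1000 bp, and H3K4me3 summits of the 4 conditions within 1000 bp were chained into sites. A strong summit scored at or above its list median, a step added after the data were seen. Shares have Wilson 95% intervals. No test was run, since each comparison sets LCC (2 libraries for H3K27ac, 1 for the other marks) against 1 library, and the share over all summits is the background. The sites named were drawn from the strongest summit of each mark in a window and strong summits with none of the other condition within 5000 bp. Not every strongest summit is given. Other sites given with values were chosen after their values were seen, and the members and lists were chosen with earlier results of these data known. With no hg19 annotation, gene starts, cofactors and tissue markers were not used. Promoter sequences came from RefSeq (GRCh38.p14). Alternatives were other distances, a score minimum of 10, lists of equal length and leaving out each LCC H3K27ac replicate. The code was tested on simulated data with Python 3.11.15, pandas 2.3.3, numpy 2.4.6, scipy 1.17.1 and matplotlib 3.10.9.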

Additional observations from a re-analysis of the deposited data

How the results depend on the processing

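Over 70 shares and counts and 224 recomputed values, 168 stayed within the interval or range set for them and 56 moved. These spans differed in width between results. At 500 bp the acetylated share of LCC H3K4me3 went from 63.0 to 57.0% and was counted as moved. In TGFb it went from 75.5 to 63.3% and in SO1 from 79.2 to 66.7%, and both were counted as unmoved. The values listed below as moved are thus not always the largest shifts. Leaving out either LCC H3K27ac replicate moved none of 22, which is no check. Each value is then that of the other replicate, already part of the mean it is set against. LCC H3K27ac values here are means over its 2 replicates.

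With a distance of 500 bp, the shares of LCC H3K27ac kept were 74.7% in TGFb and 77.1% in SO1, and the shares found in LCC were 64.6% from TGFb, 71.6% from SO1 and 59.6% from H2030. For H3K4me1 they were 69.7% kept in TGFb and 67.7% in SO1, and 72.4%, 65.7% and 48.6% found in LCC from TGFb, SO1 and H2030. The acetylated share of LCC H3K4me3 was 57.0%. With 2500 bp, H3K27ac found in LCC was 80.2% from TGFb, 81.8% from SO1 and 71.2% from H2030, and 53.5% was kept in H2030. H3K4me1 kept was 88.9% in TGFb, 88.9% in SO1 and 63.6% in H2030, and found in LCC 91.8%, 93.1% and 77.8%. The acetylated share was 66.0%.

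With scores of at least 10, H3K27ac found in LCC was 66.3% from TGFb, 65.0% from SO1 and 56.8% from H2030, H3K4me1 kept in SO1 was 90.3%, and the acetylated share of LCC was 53.2%. The counts were 9 HOXA H3K4me3 summits in H2030, 10.5 HOXA and 5.5 HOXC H3K27ac summits in LCC, and for H3K4me1 19 in TGFb and 15 in H2030 for HOXA, 21, 22 and 9 in LCC, TGFb and H2030 for HOXB, 16 in LCC for HOXC, and 2, 3, 8 and 7 in LCC, TGFb, SO1 and H2030 for HOXD. With lists of equal length, H3K27ac found in LCC was 78.6% from TGFb and 75.6% from SO1.

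Among summits at or above the list median, chosen after seeing the data, H3K4me3 was kept at 100.0% in TGFb and 100.0% in SO1, and found in LCC at 100.0%, 100.0% and 89.5% from TGFb, SO1 and H2030. H3K27ac was kept at 100.0% in TGFb and 98.2% in SO1, and found at 90.6%, 87.1% and 73.8%. H3K4me1 was kept at 93.3% in both TGFb and SO1, and found at 91.1% from TGFb and 90.6% from SO1.

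No paired analysis was possible because only LCC H3K27ac had 2 libraries with a list and no test was run. The 2500 bp window around gene starts was not run, as no hg19 annotation was used. Depth is unknown, and a summit absent from a list says only that none was called there.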
